A study of Mus musculus with 8 samples.

Results

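Semaphorins, plexins and neuropilin 1 are described here in CD8+ T cells sorted by their level of the interleukin-18 receptor. The 10 genes were found by their names among the 47493 genes of the table. They were 7 semaphorins (Sema4a, Sema4b, Sema4c, Sema4d, Sema4f, Sema6d and Sema7a) and 3 receptors (Plxnd1, Plxnb2 and Nrp1). The libraries came from 4 female C57BL/6 mice, 6 to 8 weeks old, that carried B16-F10 melanoma, a mouse tumor line. On day 0 each mouse received 200000 tumor cells in the skin, and on day 3 it received cyclophosphamide (300 mg/kg). On day 5 it received 2000000 Pmel-1 CD8+ T cells, which carry a transgenic receptor for the melanocyte antigen gp100 and the Thy1.1 mark. Before transfer these cells had been primed in culture with gp100 peptide. The transfer was followed by IL-2 (10000 IU daily for 3 days). An antibody that depletes CD4+ cells (200 μg weekly for 3 weeks) was given from day 10 to each of the mice, so no library came from a mouse without it. On day 25, CD8+ T cells of the host (negative for Thy1.1) were isolated with beads from lymph nodes and spleen. They were passed over a magnetic column that held cells with high IL-18Rα. The held cells are called the enriched fraction, and the cells that ran through, which served as the control, are called the flow-through. Both fractions came from each mouse, which gave 4 libraries of each.

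Semaphorins are secreted or membrane-bound proteins that share the sema domain and are best known for guiding growing axons. Plexins are their main receptors, and they act on small GTPases and the cytoskeleton. Neuropilins hold class 3 semaphorins and VEGF for partner receptors. Class 4 semaphorins, Sema6d and Sema7a are also found on cells of the immune system, where they take part in contacts of T cells with B cells, dendritic cells and monocytes.

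Values are FPKM, which scale fragment counts to transcript length and sequencing depth, as deposited by the authors, so levels of different genes can be set side by side per length. Means are given ± SD of 4 libraries. A log2 fold change is the enriched minus the flow-through mean on the log2(FPKM + 1) scale, on which weakly expressed genes show less than their full change. It was tested with limma for the 12166 genes whose mean over the 8 libraries reached 1 FPKM. This test did not pair the fractions of a mouse, and a fit with the mouse as a replicate block is given as an alternative. A gene was called when its p, adjusted by the Benjamini-Hochberg method over these genes, was under 0.05. The estimated depth was 14600000 to 17700000 fragments per library, and the estimates of the fractions overlapped. Il18r1, which encodes IL-18Rα, ranged from 22.2 to 37.2 FPKM in the flow-through libraries and from 106.6 to 116.0 FPKM in the enriched ones, so the labels held in each of the 8 libraries.

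Flow-through replicate 1 stood apart. The summed FPKM of 8 genes of CD8 T-cell identity (Cd3d, Cd3e, Cd3g, Cd247, Cd8a, Cd8b1, Lck and Zap70) was 1280.2 in that library, against 2047.7 to 2426.9 in the other flow-through libraries and 2402.7 to 2577.8 in the enriched ones. Its summed FPKM of 10 genes of erythroid progenitors was 3056.5, the highest of the 8 libraries. Values are therefore also given after T-cell scaling, in which each library was multiplied so that the geometric mean of FPKM + 1 of the 8 identity genes was equal. These 8 genes had a median log2 fold change of 0.38, and Zap70 was itself called higher (0.64, adjusted p = 0.0263). The scaling thus also lowers the enriched libraries, by factors of 0.8561 to 0.9089, beside 0.9139 to 1.72 for the flow-through. In RNA of whole fractions, fewer cells of a type and less RNA per cell cannot be told apart.

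Each of the 10 genes was higher in the enriched library than in the flow-through library of the same mouse in 4 of 4 mice, as were 29.2% of the genes tested. The change was called for 8 of the 10 genes, all of them higher, against 14.1% of the genes tested called higher and 13.7% called lower. Sema7a and Plxnb2 were not called. For 8 of the 10 genes the libraries of the fractions did not overlap, with the enriched ones higher, against 16.4% of the genes tested. The exceptions were Plxnd1 and Plxnb2. The median log2 fold change of the 10 genes was 0.78, beside -0.018 for the genes tested. After T-cell scaling 4 of the 10 were called higher (Sema4c, Sema6d, Plxnd1 and Nrp1), against 4.51% of the genes tested called higher and 8.98% called lower, and the median of the genes tested was -0.328. Calls over the genes tested were then 549 higher and 1092 lower, in place of 1720 and 1664. The 10 genes had their lowest flow-through value in replicate 1, as did 43.4% of the genes tested. Without that library 8 were called (14.2% of the genes tested were called higher), and without both libraries of that mouse also 8 (14.8%). After T-cell scaling the libraries of 5 genes did not overlap (Sema4a, Sema4c, Sema4d, Sema6d and Nrp1), against 6.35% of the genes tested.

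**Figure D1:**
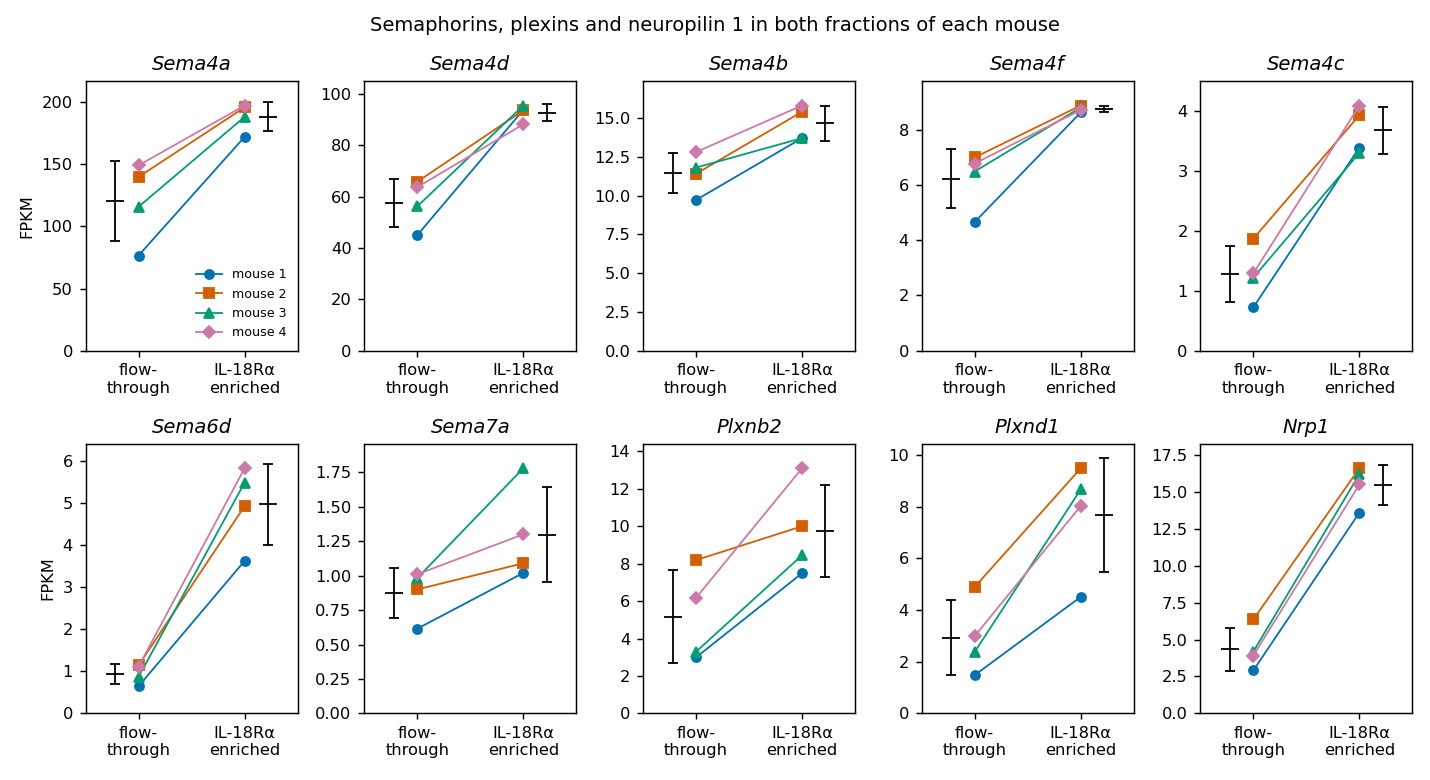
FPKM of the 10 genes (linear axes from 0) in the 4 flow-through and 4 enriched libraries, with lines that join the fractions of a mouse and bars for the mean ± SD. Each gene is higher in the enriched library in 4 of 4 mice, and the fractions overlap for Plxnd1 and Plxnb2.

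Sema4a and Sema4d made up most of the semaphorin RNA in both fractions. Sema4a encodes a membrane semaphorin that costimulates T cells. It was at 76.5, 139.7, 115.7 and 149.0 FPKM in flow-through replicates 1 to 4 and at 171.9, 195.6, 188.0 and 197.1 FPKM in the enriched libraries. The flow-through libraries spread widely while the enriched ones lay close together above them, with no overlap. The mean rose from 120.2 ± 32.3 to 188.1 ± 11.5 FPKM, a log2 fold change of 0.68 (SE 0.19, 95% interval 0.25 to 1.12, adjusted p = 0.0303). After T-cell scaling the difference was 0.34 (adjusted p = 0.114) and the fractions still did not overlap.

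Sema4d encodes CD100, which is abundant on resting T cells and binds B-type plexins and, on B cells, CD72. It was at 45.0, 65.8, 56.2 and 63.7 FPKM in the flow-through and at 93.8, 93.6, 95.5 and 88.2 FPKM in the enriched libraries. The lowest enriched library was above the highest flow-through library. Sema4d rose by 0.69 on the log2 scale (SE 0.12, 95% interval 0.42 to 0.96, adjusted p = 0.00487). With T-cell scaling its difference was 0.35 (adjusted p = 0.125).

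The ratio of Sema4a to Sema4d within a library was 2.06 ± 0.265 for the flow-through libraries and 2.03 ± 0.172 for the enriched ones, and it was higher in the enriched library in 1 of 4 mice. Their proportion was thus close in both fractions. Sema4a made up 60% ± 3.3 of the summed FPKM of the 7 semaphorins of the flow-through and 59.8% ± 1.4 of that of the enriched libraries, and Sema4d made up 29.4% ± 2.3 and 29.6% ± 1.8.

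Sema4b and Sema4f, class 4 membrane semaphorins, showed the smallest called changes among the 10 genes. Sema4b was at 9.71, 11.4, 11.8 and 12.8 FPKM in the flow-through and at 13.7, 15.4, 13.7 and 15.8 FPKM in the enriched libraries. The fractions did not overlap, though the gap was narrow. Its log2 fold change was 0.34 (SE 0.10, 95% interval 0.11 to 0.56, adjusted p = 0.0353), and after T-cell scaling 0.02 (95% interval -0.36 to 0.40, adjusted p = 0.943). The ratio of Sema4b to Sema4d was 0.20 ± 0.0193 for the flow-through libraries and 0.158 ± 0.0168 for the enriched ones, lower in the enriched library of each mouse.

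Sema4f was at 4.66, 7.0, 6.49 and 6.78 FPKM in the flow-through and at 8.63, 8.88, 8.81 and 8.72 FPKM in the enriched libraries. The enriched libraries were nearly equal and lay above the flow-through. It rose by 0.45 on the log2 scale (SE 0.12, 95% interval 0.18 to 0.71, adjusted p = 0.024), and its difference was 0.14 after T-cell scaling (adjusted p = 0.436).

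Sema4c and Sema6d were low in the flow-through and showed larger changes. Sema4c encodes a membrane ligand of plexin-B2. It was at 0.724, 1.87, 1.22 and 1.29 FPKM in the flow-through and at 3.39, 3.93, 3.30 and 4.09 FPKM in the enriched libraries. The fractions were well separated in these values. Sema4c rose by 1.06 on the log2 scale (SE 0.16, 95% interval 0.69 to 1.43, adjusted p = 0.00327), with enriched over flow-through FPKM ratios of 2.1 to 4.68 within the mice. After T-cell scaling the rise was 0.84 (adjusted p = 0.00875). On the other strand, 334 exonic bases of Sema4c are shared with D430040D24Rik, which had a mean of 0.1349 FPKM. Whether the counting used the strand is not given.

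Sema6d encodes a class 6 semaphorin that binds plexin-A1. The study had named it, on a separate microarray, among genes raised by anti-CD4 treatment. That array compared host CD8+ T cells pooled from mice with and without anti-CD4, and it did not compare these fractions. Here the FPKM of Sema6d was 0.644, 1.14, 0.866 and 1.11 for the flow-through libraries and 3.62, 4.92, 5.48 and 5.82 for the enriched ones. No enriched library came near the flow-through. Mean FPKM was 0.941 ± 0.234 for the flow-through and 4.96 ± 0.968 for the enriched fraction. That ratio of 5.27 was the highest of the 10 genes. The log2 fold change was 1.61 (SE 0.15, 95% interval 1.26 to 1.96, adjusted p = 0.0006), and 1.39 after T-cell scaling (adjusted p = 0.00148). Because the flow-through mean was under 1 FPKM for Sema6d, and likewise for Sema7a, these genes passed the filter on low values through the enriched libraries. With no filter Sema6d was still called (adjusted p = 0.00242).

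Sema7a encodes a lipid-anchored semaphorin that binds plexin-C1 and integrins with the β1 chain. It was at 0.615, 0.900, 0.982 and 1.01 FPKM in the flow-through and at 1.02, 1.09, 1.78 and 1.30 FPKM in the enriched libraries. The values of the fractions nearly met without overlapping. Its log2 difference was 0.28 (SE 0.15, 95% interval -0.05 to 0.62, adjusted p = 0.18).

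Among the 3 receptors, Nrp1 showed the largest log2 fold change. Neuropilin 1 is a co-receptor for class 3 semaphorins and VEGF and a known surface marker of regulatory T cells that arise in the thymus. The study listed Nrp1, and also Sema4d, from these same libraries, so their direction is not independent of that choice. Nrp1 was at 2.91, 6.36, 4.19 and 3.92 FPKM in the flow-through and at 13.6, 16.6, 16.2 and 15.5 FPKM in the enriched libraries. The lowest enriched value was more than the highest flow-through value by a wide gap. Its mean rose from 4.34 ± 1.45 to 15.5 ± 1.33 FPKM. The log2 fold change was 1.66 (SE 0.18, 95% interval 1.25 to 2.07, adjusted p = 0.00094). With T-cell scaling the rise was 1.36 (adjusted p = 0.00199). Nrp1 and Sema6d had no fixed order: Sema6d was above Nrp1 with T-cell scaling and with a pseudocount of 0.1 (2.29 against 1.86). The log2 fold change of Nrp1 stood at the 99.5 percentile of the genes tested, and that of Sema6d at the 99.4 percentile.

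Plxnd1 encodes plexin-D1, a receptor of Sema3e that guides vessels and thymocytes. It was at 1.48, 4.89, 2.38 and 2.99 FPKM in the flow-through and at 4.51, 9.49, 8.67 and 8.03 FPKM in the enriched libraries. Enriched replicate 1 lay below flow-through replicate 2, so the fractions overlapped, and replicate 1 was the lowest library of both fractions. Within the mice the enriched to flow-through ratio was 1.94 to 3.65. Plxnd1 rose by 1.17 on the log2 scale (SE 0.29, 95% interval 0.51 to 1.83, adjusted p = 0.0193), and by 0.91 after T-cell scaling (adjusted p = 0.0401). The call was lost when flow-through replicate 3 or enriched replicate 2, 3 or 4 was left out (adjusted p = 0.0541 to 0.0579).

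Plxnb2 encodes plexin-B2, a receptor of Sema4c and Sema4d. Its FPKM was 2.99, 8.19, 3.29 and 6.17 for the flow-through libraries and 7.49, 10.0, 8.45 and 13.1 for the enriched ones. Flow-through replicate 2 was above enriched replicate 1, and the spread within each fraction was wide. Its log2 difference of 0.87 (SE 0.29, 95% interval 0.22 to 1.52) missed the threshold (adjusted p = 0.0525). With the mouse as a replicate block it was called (adjusted p = 0.00512), and 9 of the 10 genes were then called, beside 22.2% of the genes tested called higher and 22.7% called lower. With the block and T-cell scaling together 4 of the 10 were called, beside 5.28% of the genes tested called higher and 18.7% called lower.

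**Figure D2:**
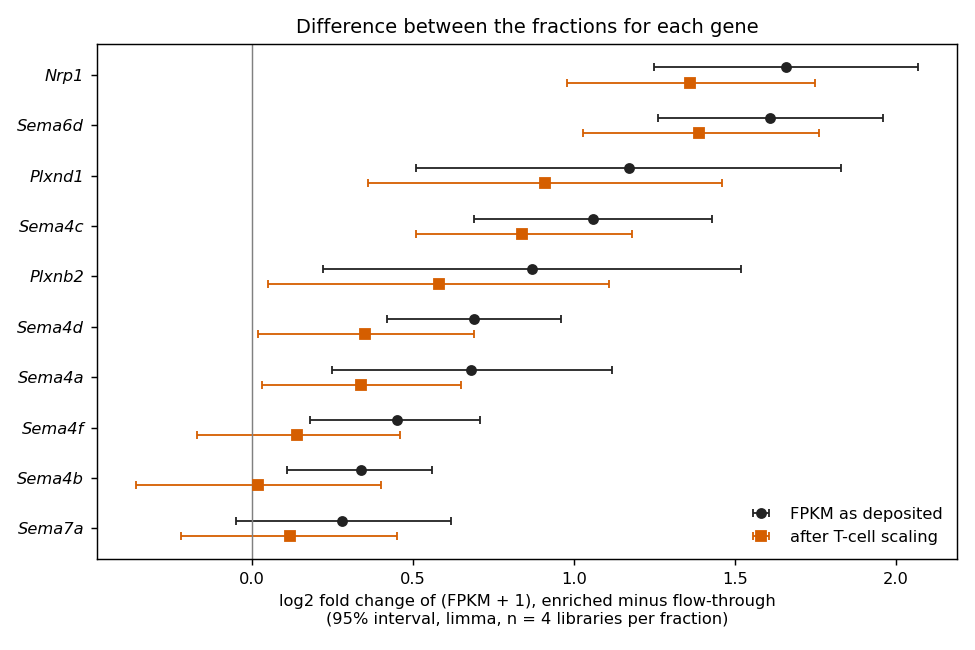
Log2 fold change (enriched minus flow-through, log2(FPKM + 1) scale) of the 10 genes with 95% intervals, as deposited and after T-cell scaling. After T-cell scaling the intervals of Sema4b, Sema4f and Sema7a include 0, and Sema4b moves from 0.34 to 0.02.

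Nrp1 and Sema6d were also higher relative to Sema4d, a ratio that no scaling of a library can change. The ratio of Nrp1 to Sema4d was 0.0743 ± 0.0158 for flow-through libraries and 0.167 ± 0.0150 for enriched ones, with no overlap. That of Sema6d to Sema4d was 0.0161 ± 0.00154 and 0.0536 ± 0.0115, also with no overlap. Sema6d passed Sema4c in order: their ratio was 0.609 to 0.889 in the flow-through libraries and 1.07 to 1.66 in the enriched libraries. The ratio of Plxnd1 to Plxnb2 was 0.575 ± 0.110 and 0.797 ± 0.221, higher in the enriched library of 4 of 4 mice but with overlapping fractions. These ratios are descriptions, given without a test.

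**Figure D3:**
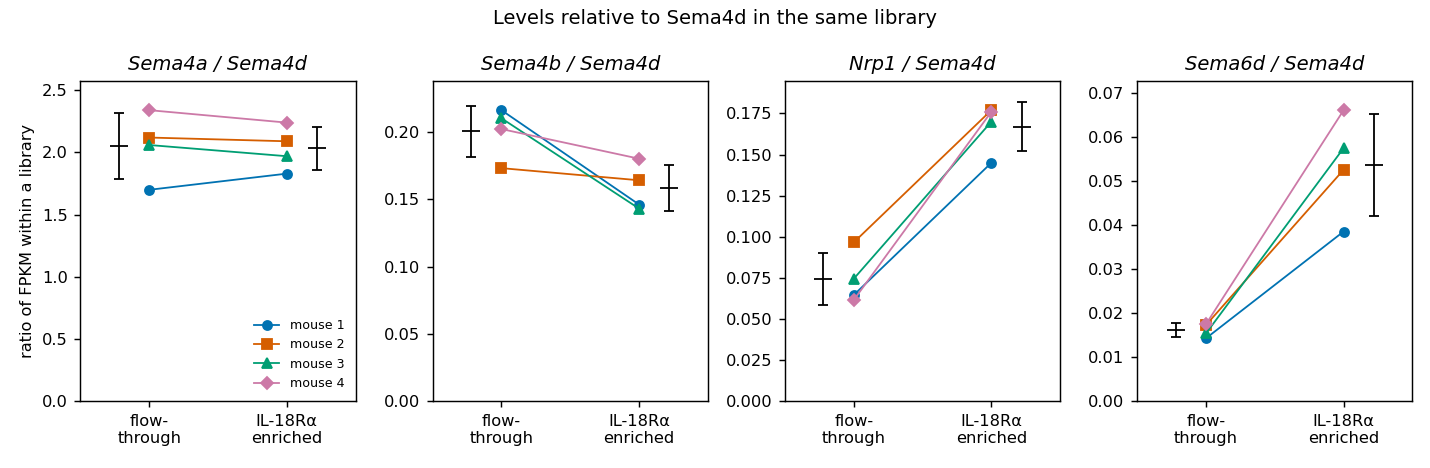
Ratios of FPKM within a library for each of the 4 flow-through and 4 enriched libraries. The fractions do not overlap for Nrp1 or Sema6d over Sema4d, and they overlap for Sema4a over Sema4d.

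In order of FPKM, the flow-through ran Sema4a, Sema4d, Sema4b, Sema4f, Plxnb2, Nrp1, Plxnd1, Sema4c, Sema6d and Sema7a. Only the steps from Sema4a to Sema4d, Sema4d to Sema4b and Sema4b to Sema4f were free of overlap between neighbors. In the enriched fraction Nrp1 moved up to the place behind Sema4d, followed by Sema4b, Plxnb2, Sema4f, Plxnd1, Sema6d, Sema4c and Sema7a. Here the steps from Sema4a to Sema4d, Sema4d to Nrp1, Sema4b to Plxnb2 and Sema4c to Sema7a were free of overlap.

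The promoters of Nrp1, Sema6d and Sema4c, which were called under each alternative in which they could be fitted, are shown for reference, as the 250 bases before the RefSeq start on the strand of the gene (GRCm38.p6, which is mm10). Each lies outside the exons of its gene, and that of Nrp1 lies within the longer span that GENCODE gives the gene. Capitals mark matches to 4 short motifs chosen after the values were seen and searched on both strands, namely AP-1 (TGANTCA), the T-box core (TCACAC), the ROR half-site (AGGTCA) and STAT (TTCNNNGAA).
Sema6d, promoter 1 of 2, chr2:124089719-124089968, plus strand: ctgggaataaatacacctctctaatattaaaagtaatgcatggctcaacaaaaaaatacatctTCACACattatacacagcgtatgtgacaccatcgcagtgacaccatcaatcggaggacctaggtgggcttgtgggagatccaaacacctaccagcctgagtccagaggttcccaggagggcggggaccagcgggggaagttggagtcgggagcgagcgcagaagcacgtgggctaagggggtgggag
Sema4c, promoter 1 of 2, chr1:36558382-36558631, minus strand: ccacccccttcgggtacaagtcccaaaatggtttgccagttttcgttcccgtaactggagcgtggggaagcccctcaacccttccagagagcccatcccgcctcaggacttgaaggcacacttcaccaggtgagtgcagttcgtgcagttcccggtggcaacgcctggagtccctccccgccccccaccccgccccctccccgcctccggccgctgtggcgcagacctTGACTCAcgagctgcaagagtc
Nrp1, chr8:128358823-128359072, plus strand: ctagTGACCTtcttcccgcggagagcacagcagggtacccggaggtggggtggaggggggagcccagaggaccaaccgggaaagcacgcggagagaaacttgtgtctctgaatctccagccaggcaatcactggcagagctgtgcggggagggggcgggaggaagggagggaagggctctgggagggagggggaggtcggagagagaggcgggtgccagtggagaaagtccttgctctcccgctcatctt
The Sema6d window held 1 T-box core, the Sema4c window 1 AP-1 match and the Nrp1 window 1 ROR half-site, which is written there as its reverse complement. Promoter 2 of Sema6d and promoter 2 of Sema4c, which are not shown, held no match to the 4 motifs. Among 32851 promoters of this length, 12.3% held the T-box core, 6.75% the AP-1 motif, 14% the ROR half-site and 7.02% the STAT motif. A match describes these letters only, and the RNA values do not tell which promoter was used.

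By position in mm10, Sema6d spans chr2:124089969-124667770, Sema4c chr1:36548639-36558349 and Nrp1 chr8:128358604-128503363. Sema4a (chr3:88435959-88461182), Sema4b (chr7:80186841-80226527), Sema4d (chr13:51685529-51793747), Sema4f (chr6:82911885-82939769) and Sema7a (chr9:57940112-57962865) lie on 5 further chromosomes. The plexin genes are Plxnd1 (chr6:115954811-115995005) and Plxnb2 (chr15:89155549-89180788). The 10 genes are annotated as protein-coding.

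The wider pathway list held 61 other genes, of which 35 passed the filter on low values. Of these 16 were called higher and 3 lower, with a median log2 fold change of 0.39. The higher calls include Itga1 and Mical2, which passed the filter through the enriched libraries. Over the genes tested, 14.1% were called higher and 13.7% lower, with a median of -0.018. After T-cell scaling 5 of the 35 were called higher and 2 lower, with a median of 0.07. The genes tested then had 4.51% called higher and 8.98% lower, with a median of -0.328. The same shares stand beside the counts for the groups of this list below. None of 13 other semaphorins passed the filter, and their summed FPKM was 1.37 to 2.91 in the flow-through libraries and 1.71 to 3.24 in the enriched ones. Class 3 semaphorins, the ligands that neuropilins hold, were therefore near 0 in these libraries.

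**Figure D4:**
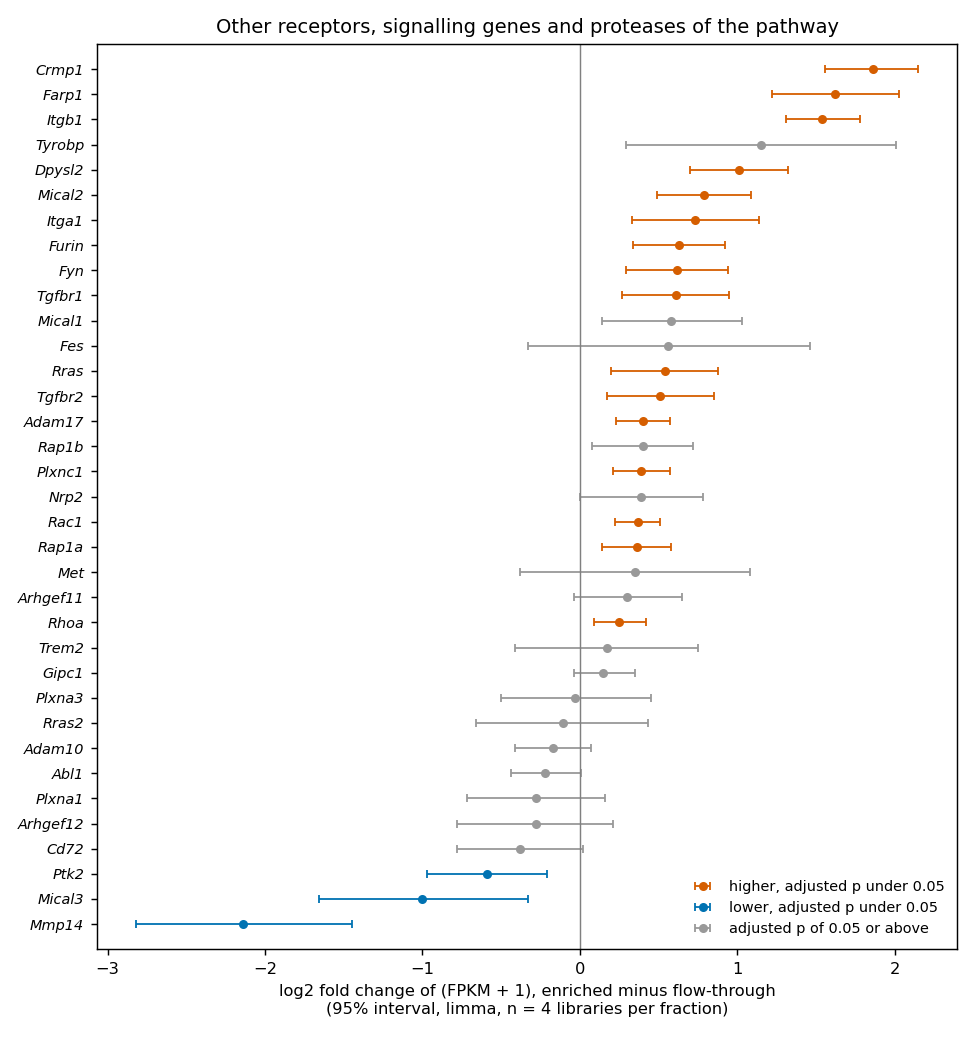
Log2 fold change (enriched minus flow-through, log2(FPKM + 1) scale) with 95% intervals of the 35 other pathway genes that passed the filter, ordered by size and colored by call. The values run from -2.14 for Mmp14 to 1.86 for Crmp1.

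Among the other plexins and neuropilins, 1 of 4 that passed was called. Plxnc1, the plexin receptor of Sema7a, rose from 11.2 ± 0.683 to 15 ± 1.03 FPKM (log2 fold change 0.39, adjusted p = 0.00934), and was at 0.07 after T-cell scaling (adjusted p = 0.777). Nrp2 differed by 0.39 (adjusted p = 0.117), Plxna1, a receptor of Sema6d, by -0.28 (adjusted p = 0.304) and Plxna3 by -0.03 (adjusted p = 0.932).

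Of 8 other semaphorin receptors and partners that passed, 4 were called higher. Itgb1, the β1 integrin chain to which Sema7a binds, rose from 157.8 ± 16.0 to 462.6 ± 49.6 FPKM, a log2 fold change of 1.54 (adjusted p = 0.0002) and of 1.20 after T-cell scaling (adjusted p = 0.0101). Its partner chain Itga1 rose by 0.73 (adjusted p = 0.0179), and Tgfbr1 and Tgfbr2, chains of the TGF-β receptor, rose by 0.61 (adjusted p = 0.0195) and 0.51 (adjusted p = 0.0337). After T-cell scaling Itga1 (adjusted p = 0.0586), Tgfbr1 (adjusted p = 0.199) and Tgfbr2 (adjusted p = 0.349) were not called. Cd72, the receptor of Sema4d on B cells, was at 31.5 ± 7.22 and 23.6 ± 3.34 FPKM, a difference of -0.38 (adjusted p = 0.137). It was called lower with T-cell scaling (-0.71, adjusted p = 0.0254) and with the mouse as a block (adjusted p = 0.0147). Trem2 differed by 0.17 (adjusted p = 0.64). Tyrobp differed by 1.15 (adjusted p = 0.0525) and Met by 0.35 (adjusted p = 0.438), and the block called both higher (adjusted p = 0.00041 and 0.0423).

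Of 19 signaling adaptors that passed, 9 were called higher and 2 lower. Crmp1 and Dpysl2, which encode collapsin response mediator proteins, rose by 1.86 (adjusted p = 0.00021) and 1.01 (adjusted p = 0.002). Farp1 rose by 1.62 (adjusted p = 0.00103). These rises remained after T-cell scaling, at 1.54, 0.71 and 1.37 (adjusted p = 0.00094, 0.0132 and 0.0018). The MICAL oxidoreductases act on actin. Of these Mical2 rose by 0.79 (adjusted p = 0.00463), from a mean of 0.583 to 1.72 FPKM, and passed the filter through the enriched libraries. Mical3 fell by 1.00 (adjusted p = 0.0355), which was not called after T-cell scaling (adjusted p = 0.0629). The other lower gene was Ptk2, focal adhesion kinase, at -0.59 (adjusted p = 0.0318), named after its value was seen. Ptk2 was not called after T-cell scaling (adjusted p = 0.0729) or without flow-through replicate 1 (adjusted p = 0.0503), and without both libraries of mouse 1 neither Ptk2 (adjusted p = 0.0748) nor Mical3 (adjusted p = 0.054) was.

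Among 4 proteases that can cut semaphorins or process them, Mmp14 fell by 2.14 (adjusted p = 0.0023), from 15 ± 6.67 to 2.55 ± 1.05 FPKM. Adam17 rose by 0.40 (adjusted p = 0.00699) and Furin by 0.63 (adjusted p = 0.00928), and neither was called after T-cell scaling. Adam10 differed by -0.17 (adjusted p = 0.246).

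Genes listed as markers of other cell types also differed between the fractions, for some types. The counts below are from the unpaired test unless stated, and stand beside 14.1% of the genes tested called higher and 13.7% called lower. The CD8+ T cells had been isolated by removing other cells with a negative-selection kit. Among the marker genes, the study names Cd40lg, Blk, Ncr1 and Klrb1c for the enriched CD8+ T cells themselves. Cd40lg is on the CD4 T-cell list, Blk on the γδ T-cell list, and Ncr1 and Klrb1c on the NK-cell list. Of 6 regulatory T-cell markers, 5 passed the filter and 4 were called higher, and their summed FPKM was 26.9 to 62.9 in the flow-through libraries and 72 to 129.8 in the enriched ones. Foxp3, their defining transcription factor, was at a mean of 2.62 ± 1.36 and 11.6 ± 5.48 FPKM. Of 7 markers of conventional dendritic cells 5 were called higher (17.6 to 27.3 against 37.4 to 81.0 FPKM), and of 11 myeloid markers 4 of the 10 that passed (480.2 to 1314.6 against 1100.3 to 2499.6 FPKM). Of 8 NK-cell markers 5 were called higher among 7 that passed, with sums of 92.1 to 261.3 FPKM in the flow-through libraries and 241.6 to 506.9 FPKM in the enriched ones. The 3 CD4 T-cell markers were called higher (10.2 to 15.2 against 38.1 to 49.4 FPKM), as were 2 of 3 γδ T-cell markers that passed (5.15 to 16.5 against 16.8 to 40.6 FPKM). Of 10 erythroid progenitor markers 4 were called lower (966.0 to 3056.5 against 237.5 to 1392.0 FPKM). B-cell markers, with 1 of 6 called higher, summed to 26.0 to 67.9 and 42.2 to 87.9 FPKM, and plasma-cell markers, with 1 of 5, to 323.1 to 1287.2 and 588.3 to 1539.7 FPKM. Granulocyte progenitor markers (0 of 5 called) summed to 587.4 to 3424.2 FPKM in the flow-through libraries and 567.4 to 3341.5 FPKM in the enriched ones. Replicate 2 was the highest of each fraction, above its CD8 identity sums of 2359.6 FPKM (flow-through) and 2406.2 FPKM (enriched). Plasmacytoid dendritic markers (1 higher and 1 lower of 4) had overlapping sums, and 2 stromal markers that passed were not called. No melanoma marker passed, with Mlana, Tyr, Dct and Tyrp1 at 0 in the 8 libraries. With the mouse as a replicate block, 5 plasma-cell, 8 myeloid, 5 regulatory T-cell, 6 NK-cell, 3 γδ T-cell and 2 B-cell markers were called higher. The block called 9 erythroid progenitor markers lower, and 1 granulocyte progenitor marker in each direction. The genes tested then had 22.2% called higher and 22.7% lower. The plasma-cell, B-cell and myeloid sums were higher in the enriched library of each mouse. Cd4, Xcr1, Adgre1 and Klra8 were called higher with flow-through means of 0.662, 0.688, 0.805 and 0.290 FPKM. These markers passed the filter on low values through the enriched libraries. The part of other cell types in the changes of the 10 genes was not tested.

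The genes whose pattern was most like that of Nrp1, by Pearson correlation of log2(FPKM + 1) over the 8 libraries, were Il1r2, the decoy receptor for interleukin-1 (r = 0.9971), Litaf (r = 0.9950) and Hipk3 (r = 0.9946). In FPKM, Il1r2 was at 1.46 ± 0.511 and 5.49 ± 0.269, Litaf at 15.2 ± 2.53 and 33.2 ± 2.20, and Hipk3 at 10.7 ± 0.574 and 14.7 ± 0.531. There were 487 of 12165 genes with r above 0.95, and the points share the split into fractions and the mice.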

How the data were processed

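Poly(A) RNA of 8 libraries was sequenced as paired ends from stranded libraries. The authors mapped reads to mm10 with TopHat and deposited FPKM per gene from Cufflinks 2.1.1, with correction for multiple mapping and fragment bias. Other Cufflinks options were left at their defaults. Neither a strand setting nor the annotation release is given in the sources used here. Depth was estimated from low FPKM values of genes with 1 transcript, so no counting interval was applied. Log2(FPKM + 1) was tested with limma 3.58.1 (R 4.3.3, variance trend) where the mean of the 8 libraries reached 1 FPKM. Coordinates are from GENCODE for mm10, which held 98.9% of the gene identifiers, and promoters are from RefSeq. The test was checked on simulated data. Groups and replicate numbers came from the labels, and numbers were taken to pair the fractions of a mouse. Deviations of same-numbered libraries correlated at 0.308 to 0.66. For each flow-through library this was above its highest value with an enriched library of another number (0.191 to 0.412). The check was not made from the side of the enriched libraries. The members and lists were chosen with earlier results of these data known. The text names the 10 members, receptors that passed the filter, other called pathway genes (5 adaptors with the largest change) and Il18r1. Of 164 listed genes, 160 were used. The alternatives were pseudocount 0.1, no filter or a mean of at least 5 FPKM, quantile normalization, T-cell scaling, the replicate block and leaving out each library. Leaving out both libraries of mouse 1, and the block with T-cell scaling, were added after seeing the data. Replicates are separate mice.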

Additional observations from a re-analysis of the deposited data

Results flagged for a closer look

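Plxna1, a receptor of Sema6d, had 2.61 FPKM in enriched replicate 1, whereas enriched replicates 2 to 4 had 1.36 to 1.56 FPKM. The gap to the nearest library was 0.846 of the range, above the 95% critical value of Dixon's test for 4 samples. It was 1 of 48 groups examined, of which chance would flag about 2.4.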

How the results depend on the processing

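Of 156 log2 fold changes of the 10 genes under the alternatives, 124 kept their direction and their side of the threshold, 29 lost the call, 3 gained it and 0 reversed. Nrp1 (1.36 to 1.86), Sema4c (0.84 to 1.52) and Sema6d (1.39 to 2.29) were called under each alternative in which they could be fitted, and Sema7a (0.12 to 0.51) under none. With no filter, each gene with a value above 0 in any library was tested, a larger set than the 12166 genes. The number of the 10 genes called higher was 5 with no filter (1669 genes higher and 1283 lower in all), 4 with T-cell scaling and 4 to 8 when a library was left out. It was 4 without flow-through replicate 3 or enriched replicate 2, 3 or 4, where Sema4a, Sema4b, Sema4f and Plxnd1 lost the call (adjusted p = 0.0526 to 0.0983). With the replicate block, which pairs the fractions of a mouse, it was 9, and with the block and T-cell scaling 4. Over the genes tested, 2705 were higher and 2763 lower with the block, 549 and 1092 with T-cell scaling, and 642 higher and 2272 lower with both. Leaving out a library gave 1107 to 1813 higher and 939 to 1780 lower, among the genes that passed the filter in the libraries kept. Of the other pathway genes, 5 were called higher with T-cell scaling, 7 with the block and T-cell scaling, and 10 to 18 when a library was left out. Lower calls were 1 with no filter, 1 with a mean of at least 5 FPKM and 1 to 3 when a library was left out. The cause of these differences was not tested. The depth is an estimate, which limits genes near 1 FPKM such as Sema7a.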
